A study of Homo sapiens with 2 samples.

Results

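The MYC and MAX network was described in the human glioblastoma cell line U87MG, an established line, from its 10 named genes: MYC, MYCN, MAX, MXD1, MXD4, MXI1, MNT, MGA, MLX and MLXIP. The members were taken by symbol from the table of gene levels, where 9 of the 10 had a row among 21445 listed genes, 14376 of them protein-coding. MYCN had no row. The series holds 1 mRNA library and 1 small RNA library of untreated U87MG cells, grown in MEM with 10% serum and 1% antibiotics. There was no replicate, no control cell and no treatment, so every value is a description of these libraries, no spread or test can be given, and the number of cultures behind a library is not given in the sources used here. mRNA levels are FPKM, a measure that corrects fragment numbers for the length of the gene and the size of the library, which is meant to let levels of different genes be set side by side. The length rule behind these values is not stated, and its part in the ratios and the order between genes was not tested.

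MYC and MYCN are transcription factors that bind DNA only as a dimer with MAX, and such dimers activate genes of growth, ribosome production and metabolism. The MXD proteins, MXI1, MNT and MGA compete with MYC for MAX and for the same DNA site, and they repress. MLX is a relative of MAX that pairs with MLXIP, also called MondoA, a sensor of glucose metabolites, and with some of the MXD proteins and MNT. MYC is among the most frequently deregulated oncogenes in human cancer, and in glioblastoma it has been tied to the self-renewal of tumour stem cells.

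Dimers of MAX with MYC or with the opposing partners read the same site in DNA, the E-box CACGTG, which is its own reverse complement. RefSeq promoter windows on GRCh38.p14, running from 250 bases before to 50 after each annotated start, were searched for these letters on both strands. MYC had no window used here. Of the other 9 members 3 held the E-box, the opposing partners MXD4 and MNT and the MAX relative MLX. The stretches around these sites are shown because these 3 members themselves carry the site that MAX dimers read. No window of MYCN, MAX, MXD1, MXI1, MGA or MLXIP held it. The E-box is in capitals, and each sequence reads along the gene's strand.
MXD4: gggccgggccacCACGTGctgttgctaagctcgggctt
MNT: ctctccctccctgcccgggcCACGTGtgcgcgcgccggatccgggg
MLX: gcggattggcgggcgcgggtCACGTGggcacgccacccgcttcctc
The MXD4 stretch is chr4:2262322-2262359 on the minus strand, with the E-box 238 bases before the start. The MNT stretch is chr17:2401228-2401273 on the minus strand, with the E-box 193 bases before the start. The MLX stretch is chr17:42567030-42567075 on the plus strand, with the E-box 50 bases before the start. The E-box was present in 7.26% of all 35116 windows and in at least 1 window of 12.2% of the 10503 coding genes that had both a row and a window. A match is a description of letters, not of binding.

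MYC was the activating partner with a row. It had 26.9 FPKM, rank 2736 of the 14376 coding genes with a row, above 81.0% of them. MYCN, the relative that drives many neuroblastomas, had no row. All 6 of its nearest coding neighbours had one. Their levels were 40.1 FPKM for DDX1, 16.1 for NBAS, 0.623 for CYRIA, 0.403 for LRATD1, 0.369 for VSNL1 and 0.033 for RAD51AP2. The MYCN antisense transcript MYCNOS and the non-coding MYCNUT had no row either. MYCL, the third MYC gene and outside the 10 members, had 0.544 FPKM, so the level of MYC was 49.4 times that of MYCL. A missing row is not by itself a lack of expression, because genes that every dividing cell needs, such as DKC1, were without one.

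MAX, the shared partner of both sides, had the highest level of the network with 38.3 FPKM, rank 1846 among coding genes. The MAX gene overlaps FNTB, a subunit of protein farnesyltransferase, which had 10.1 FPKM. Whether reads were counted by strand is not given in the sources used here, so reads from the overlap cannot be assigned with certainty. The level of MYC was 0.701 times that of MAX. MAX stood above every single partner but below their sum, at 0.458 times the 83.7 FPKM that the 6 measured partners reached together. Some of these partners can also pair with MLX.

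All 5 opposing partners had rows, and they were spread widely. MXI1, an MXD relative also known as MXD2, led with 23.5 FPKM, rank 3080, close below MYC. MGA, a very large protein that also carries a T-box DNA-binding domain, had 13.3 FPKM, rank 5214. MXD4, usually linked to differentiating cells, had 9.32 FPKM, rank 6547. MNT, a broadly expressed antagonist of MYC, had 6.57 FPKM, rank 7765. MXD1, the founding MAD protein and a gene of terminal differentiation, was lowest with 4.08 FPKM, rank 8982. MXD3, an opposing gene outside the 10 members, had 4.75 FPKM. The order was therefore MXI1, MGA, MXD4, MNT and MXD1, and MXI1 alone made up 41.4% of the opposing sum, against 7.19% for MXD1. Without replicates it cannot be said which neighbours in this order differ beyond their spread.

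**Figure D1:**
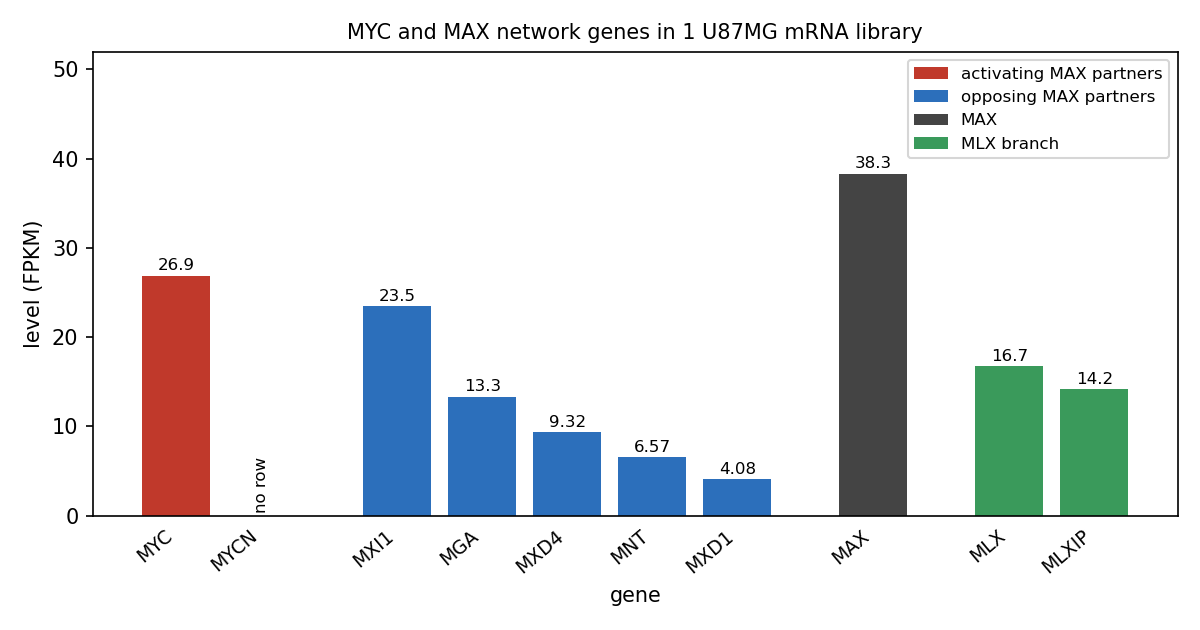
Level in FPKM (vertical axis) of each network gene in the U87MG mRNA library, grouped by role, with 1 bar for each gene and its value above it. MAX is highest at 38.3, MYC at 26.9 stands above each opposing partner, and MYCN has no row.

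Set against the opposing partners, MYC was higher than each but lower than all of them together. The activating sum was 26.9 FPKM and the opposing sum 56.8 FPKM, a ratio of 0.473. Taken singly, MYC was 1.14 times MXI1, 2.02 times MGA, 2.88 times MXD4, 4.09 times MNT and 6.58 times MXD1. The direction thus depends on how the sides are taken: the sum is over 1 measured activating gene and 5 opposing genes, whereas the highest member of each side gave 1.14. Among all measured MAX partners MYC held 32.1% of the summed level and MXI1 28.1%. With MGA left out of the opposing side the ratio of sums was 0.618. These are mRNA levels, and the amount of each protein was not measured.

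The MLX branch had both of its genes in the middle of the network range. MLXIP had 14.2 FPKM, rank 4954, and MLX had 16.7 FPKM, rank 4332, a ratio of 0.847. The MLX gene overlaps PSMC3IP, a recombination factor, which had 4.47 FPKM. MLXIPL, better known as ChREBP and the partner of MLX in liver and fat, had no row. Of its 20 nearest coding genes 7 had one, against 69.0% of 20056 RefSeq coding genes. Such counts do not show why a row is missing, which was not tested. For MYCN, 16 of the 20 nearest coding genes had a row.

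Among all coding genes, most of the network lay in the upper and middle part of the range. MNT, above 46.0% of coding genes with a row, and MXD1, above 37.5%, lay below the coding median. All 9 members with a row were at 1 FPKM or more, 9 of the 10 named, where 77.5% of coding genes with a row were. At 10 FPKM or more there were 6 members, MAX, MYC, MXI1, MLX, MLXIP and MGA, where 43.8% of coding genes were. The median over the 9 members was 14.2 FPKM, and that of all coding genes with a row was 7.82 FPKM. From MXD1 to MAX the levels spanned 9.38 times. The 10 genes together made up 0.0408% of the FPKM sum of coding genes.

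**Figure D2:**
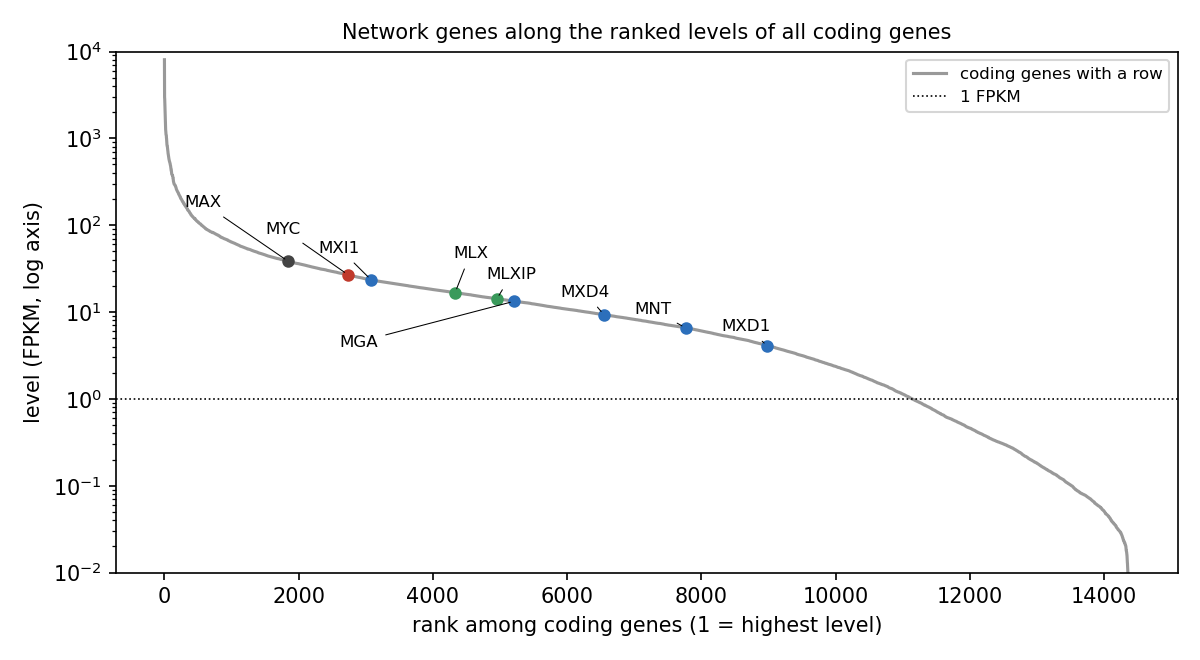
Level (vertical, FPKM on a log axis) of all coding genes with a row against their rank (horizontal), with the 9 measured network genes as points coloured by role (red MYC, blue opposing partners, grey MAX, green MLX branch). MAX is at rank 1846 and MXD1 at rank 8982, and all 9 points lie above the dotted line at 1 FPKM.

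The non-coding gene PVT1, which neighbours MYC and is often gained with it in tumours, had nearly the level of MYC. PVT1 had 26.2 FPKM, and MYC was 1.03 times that. CASC11, another non-coding neighbour of MYC, had 0.533 FPKM, while CCAT1 and CASC8 had no row. Of the 6 non-coding genes listed beside MYC or MYCN, 2 had a row, and 1 of these 2 was at 1 FPKM or more. The share over all 21445 genes with a row was 64.6%. Of these, 14376 are coding, so that share is not a baseline for non-coding genes.

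The listed genes reported as activated by MYC were mostly high. Of 30 such genes 28 had a row, 27 were at 1 FPKM or more and 25 at 10 or more, where 77.5% and 43.8% of coding genes with a row were. The median over the 28 was 67.4 FPKM, against 7.82 for coding genes. LDHA, which makes lactate, was highest with 1568 FPKM, followed by NPM1, a nucleolar chaperone, with 522 and EIF4A1, a helicase of translation initiation, with 374. Nucleolin (NCL) had 163 FPKM and the cell cycle kinase gene CDK4 121. At the other end DKC1, a nucleolar enzyme subunit, and TERT, the telomerase catalytic subunit, had no row, and CCND2, a D-type cyclin, had 0.0369 FPKM. BOP1, a factor of ribosome assembly, had 2.27 FPKM. For DKC1, 7 of the 20 nearest coding genes had a row, and for TERT also 7 of 20. In all, 19 of the 28 genes with a row had a higher level than MYC itself, as did 19% of coding genes. The list was chosen with earlier results of these data known, so these levels describe the list. Whether MYC drives them in U87MG was not tested.

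The same list often carried the E-box. Of 25 members with a promoter window 14 held it (56.0%), against 12.2% of coding genes with a row. The list was assembled from reported targets, some of which were found through this very site, so the count describes the list and not an effect in U87MG. CDK4 held 3 sites in 1 window, ODC1, the first enzyme of polyamine synthesis, held 2, and so did EIF4E, the cap-binding translation factor. LDHA and the hexokinase gene HK2 also held 2 sites each. CDK4, ODC1 and EIF4E are shown as textbook targets with more than 1 site. ODC1 had 33.9 FPKM and EIF4E 26.3 FPKM.
ODC1: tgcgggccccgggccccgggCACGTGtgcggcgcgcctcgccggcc
ODC1: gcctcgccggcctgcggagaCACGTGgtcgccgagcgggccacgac
EIF4E: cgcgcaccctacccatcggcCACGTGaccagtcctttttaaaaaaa
EIF4E: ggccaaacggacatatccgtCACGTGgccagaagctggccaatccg
CDK4: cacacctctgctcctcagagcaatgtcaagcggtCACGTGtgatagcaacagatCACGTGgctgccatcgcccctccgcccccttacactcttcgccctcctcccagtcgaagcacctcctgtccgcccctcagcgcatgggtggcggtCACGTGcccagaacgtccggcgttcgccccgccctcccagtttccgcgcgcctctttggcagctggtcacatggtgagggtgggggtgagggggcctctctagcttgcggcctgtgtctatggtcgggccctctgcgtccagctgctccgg
The ODC1 stretches are chr2:10448016-10448061 and chr2:10447982-10448027, the EIF4E stretches chr4:98929333-98929378 and chr4:98929180-98929225, and the CDK4 window chr12:57752261-57752560, all on the minus strand of GRCh38.p14. In the CDK4 window the sites begin 216, 196 and 101 bases before the start.

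Over all coding genes, those with the E-box in a window had somewhat higher levels. The 1279 genes with it had a median of 11.3 FPKM, and the 9224 without it 8.52 FPKM. At 1 FPKM or more were 86.9% of the genes with the E-box and 79.5% of those without. GC content was averaged over the windows of each gene, and its median was 65.0% for genes with the E-box and 64.0% for those without. Among genes of GC content at or above the median, the median level was 11.6 FPKM with the E-box and 9.97 FPKM without. Among genes of GC content under the median it was 10.6 FPKM with and 7.23 FPKM without. This is a description across genes of 1 library. USF and other factors read the same letters, and their part was not tested.

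**Figure D3:**
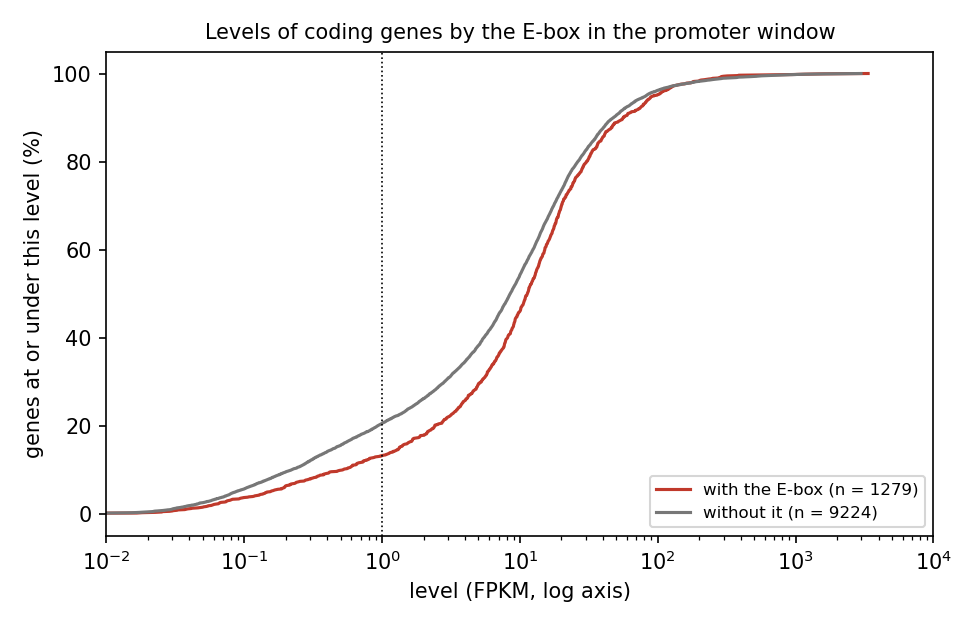
Share of coding genes at or under each level (vertical, percent) against the level (horizontal, FPKM on a log axis), for 1279 genes with the E-box in a promoter window (red) and 9224 without it (grey). The red curve lies to the right of the grey one over most of the range, with medians of 11.3 and 8.52 FPKM.

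Genes reported as repressed by MYC showed levels of both kinds. Of 9 such genes 7 had a row and 6 were at 1 FPKM or more, where 77.5% of coding genes with a row were. The median over the 7 was 24.3 FPKM, and that of coding genes was 7.82 FPKM. CDKN1A, the inhibitor p21 of cyclin-dependent kinases, had 157 FPKM, NDRG1, a stress-response gene, had 156, and THBS1, a matrix protein that restrains vessel growth, had 116. CDKN2B and CEBPA had no row, NDRG2 had 0.271 FPKM and GAS1, a growth arrest gene, had 1.64. Of the 20 nearest coding genes, 7 had a row for CDKN2B and 14 for CEBPA. None of the 7 members with a promoter window held the E-box, where 12.2% of coding genes did, a share at which 0 of 7 says little. ZBTB17 (MIZ1) is a zinc finger protein through which MYC is described to repress genes. ZBTB17 had 13.2 FPKM, and MYC was 2.04 times that. A level in 1 library does not show whether MYC raises or lowers a gene.

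The genes reported to answer to glucose through MLX dimers ranged from near the level of MYC to under 1 FPKM, with a median of 12.7 FPKM over the 4 with a row. FASN, fatty acid synthase, had 26.6 FPKM and ACACA, the first committed enzyme of fatty acid synthesis, had 18.5. The arrestin ARRDC4 had 6.97 FPKM and TXNIP, an inhibitor of glucose uptake and the best-known target of MLXIP, had 0.768. PKLR, the liver pyruvate kinase, had no row, and 17 of its 20 nearest coding genes had one. Of the 4 genes with a promoter window, ARRDC4 and PKLR held the E-box and TXNIP and ACACA did not, where 12.2% of coding genes held it. Only the letters CACGTG were searched, so a site for MLX dimers with other letters would not have been found. The ARRDC4 window held 1 E-box, 210 bases before the start, at chr15:97960473-97960518 on the plus strand.
ARRDC4: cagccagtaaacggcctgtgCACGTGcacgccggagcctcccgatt
Thus 3 of the 4 genes with a row were at 1 FPKM or more, where 77.5% of coding genes were. FASN and ACACA stood above MLXIP and MLX, and ARRDC4 and TXNIP below them.

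The corepressors that the opposing partners recruit were all listed. MXD proteins, MXI1 and MNT bind the SIN3 scaffold, which carries histone deacetylases. The SIN3 and NCOR list had all 14 genes at 1 FPKM or more, 12 of them at 10 or more and 6 above MYC. Of all coding genes with a row 77.5% were at 1 FPKM or more, 43.8% at 10 or more and 19% above MYC. The list median was 24.2 FPKM. The histone chaperones RBBP4 and RBBP7 had 83.1 and 49.3 FPKM, and the deacetylase HDAC2 had 45.4. SUDS3 and ARID4A, further subunits, were lowest with 9.02 and 8.09 FPKM. The scaffolds SIN3A and SIN3B had 12.1 and 18.2 FPKM, below MXI1 and above MNT and MXD1.

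MGA belongs to a variant Polycomb complex with L3MBTL2, PCGF6 and E2F6, which silences germline genes. Of the 10 listed partners 9 had a row, all at 1 FPKM or more, and 4 were at 10 or more, where 77.5% and 43.8% of coding genes were. Their median of 8.07 FPKM lay close to the 7.82 of coding genes. CBX3, a reader of methylated histone, led with 62.0 FPKM, followed by TFDP1, a partner of E2F proteins, with 37.1 and CBX1 with 19.99. The subunits that define the complex were lower: L3MBTL2 had 6.15 FPKM, E2F6 5.84 and PCGF6 5.33, each under the 13.3 of MGA. RING1 had no row, and 3 of its 20 nearest coding genes had one.

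Coactivators of MYC and the enzymes of MYC protein turnover had moderate levels. Of 12 coactivators 10 were at 1 FPKM or more (83.3%), near the 77.5% of coding genes, and the median was 15.6 FPKM. The helicases RUVBL2 and RUVBL1 had 30.1 and 23.8 FPKM and the acetyltransferase KAT5 25.4, while KAT2A, another acetyltransferase, had 0.894 and HCFC1, a chromatin cofactor, 0.889. The 11 turnover genes all reached 1 FPKM, where 77.5% of coding genes did, and their median was 14.2 FPKM against 7.82 FPKM for coding genes. GSK3B, the kinase that marks MYC for decay, had 30.1 FPKM, the ubiquitin ligase STUB1 26.5, and USP36, a nucleolar enzyme that removes ubiquitin from MYC, 24.6. USP28, which also removes ubiquitin from MYC, was lowest with 2.72 FPKM, and the ubiquitin ligase SKP2 had 8.56. FBXW7, the ligase subunit that recognizes phosphorylated MYC, had 16.5 FPKM.

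Proteins that bind the MYC gene or its mRNA were among the higher groups. Of 13 such genes 12 were at 1 FPKM or more and 11 at 10 or more, where 77.5% and 43.8% of coding genes were, and the median was 47.2 FPKM. YBX1 had 236 FPKM, HNRNPK 221 and CNBP 147, all nucleic acid binding proteins with many other roles. IGF2BP1, which shields the coding region of MYC mRNA from decay, was lowest with 0.0287 FPKM, and PUF60, which holds back MYC transcription, had 8.10.

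**Figure D4:**
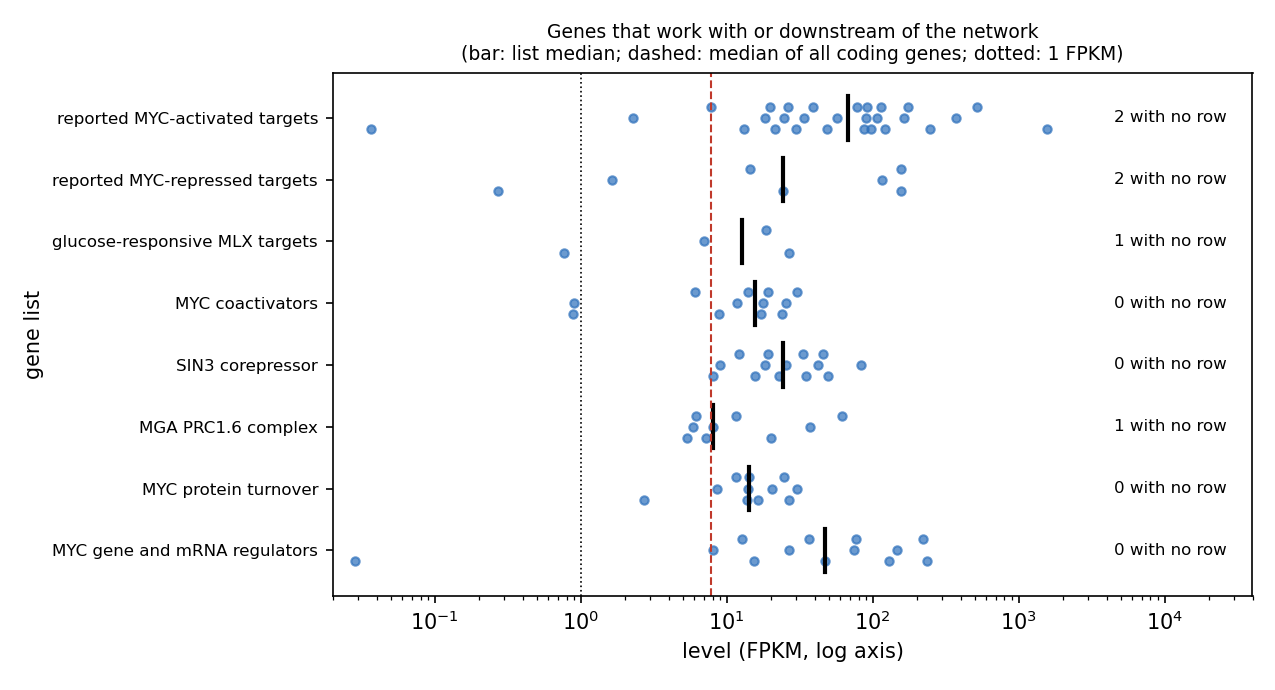
Level of each gene (points, FPKM on a log axis) in 8 lists of genes that work with the network or downstream of it, with the list median as a black bar, the median of all coding genes as a dashed line and 1 FPKM as a dotted line. The reported MYC-activated targets have the highest median, 67.4 FPKM, and the partners of MGA the lowest, 8.07 FPKM.

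The small RNA library of the same cell line held miRNAs reported to act on members of the network. Their mature sequences are shown with the seed, bases 2 to 8, in capitals, since the seed pairs with the target mRNA. They are RefSeq sequences, and the deposited count file lists the same sequence for 20 of the 21 listed miRNAs, with miR-155-5p differing.
let-7i-5p: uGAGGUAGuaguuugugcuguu
let-7a-5p: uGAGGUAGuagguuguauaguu
miR-34a-5p: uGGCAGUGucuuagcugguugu
miR-24-3p: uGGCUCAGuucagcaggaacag
miR-145-5p: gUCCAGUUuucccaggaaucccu
miR-210-3p: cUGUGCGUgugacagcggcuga
miR-17-5p: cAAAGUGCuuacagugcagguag
miR-20a-5p: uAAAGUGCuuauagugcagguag
All 9 let-7 members, reported to target MYC and MYCN mRNA, share 1 seed, and together they held 15.1% of 11785001 miRNA reads (exact Clopper-Pearson 95% interval 15.06 to 15.11%), led by let-7i-5p with 857077 reads and let-7a-5p with 325277. The other miRNAs reported to target MYC had fewer reads than these leading members, miR-24-3p with 28067 reads, miR-34a-5p with 11289 and miR-145-5p with 4472. Of the lowest let-7 members, let-7c-5p with 9256 reads and let-7d-5p with 5399 lay in the same range, and miR-98-5p with 2668 lay below it. Of those reported for the other members, miR-101-3p for MYCN had 7405 reads, miR-155-5p for MXI1 had 6257 and miR-210-3p, a hypoxia miRNA, for MNT had 3762. The 6 miRNAs of the 17-92 cluster, a textbook target of MYC, held 0.819% of the reads (0.813 to 0.824%). Within it miR-92a-3p had 78265 reads, miR-20a-5p 8460 and miR-17-5p 7225, whereas miR-19a-3p had 1262, miR-19b-3p 1113 and miR-18a-5p 137. Both miR-92a-3p and miR-19b-3p have 2 loci, on chromosomes 13 and X, so their reads cannot be assigned to this cluster alone. The intervals cover counting error only, and reads per miRNA also depend on ligation, so levels of different miRNAs are not exact proportions of molecules. Whether any of these miRNAs acts on its target was not measured.

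Of the cell type markers, all 6 mesenchymal glioblastoma markers were at 1 FPKM or more, where 77.5% of coding genes with a row were. They ranged from CHI3L1 with 24.3 FPKM to VIM with 2420. Of 6 astroglial markers 3 reached 1 FPKM, GJA1 with 143 FPKM, ALDOC with 20.99 and SLC1A3 with 19.3. GFAP had 0.331 FPKM, and S100B and AQP4 had no row. These counts do not test the identity of the line.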

How the data were processed

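FPKM values per Ensembl gene were deposited by the authors, per the file headers, for 1 mRNA library, whose depth is not given. Read counts per mature miRNA were deposited by the authors without normalization, per the file headers, for 1 small RNA library with 11785001 miRNA reads. The submitters' processing notes name cutadapt and the builds hg19 and GRCh37. Aligner, FPKM program, length rule and annotation: not given in the sources used here. A length without a unit is also listed, 33 for MNT and 3065 for MGA, and whether FPKM was scaled with it was not tested.

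Of 124 symbols searched, 111 had a row by symbol, 1 (CIP2A) by Ensembl identifier and 12 had none. Gene order and overlaps came from RefSeq on GRCh38.p14, used for names only. Promoter windows were found for 9 of the 10 members and 98 of the 124 genes. Python 3.11.15, pandas 2.3.3 and scipy 1.17.1 were used, and the motif search was tested on simulated data. The threshold was 1 FPKM, with 0.5, 5 and 10 as alternatives. Members and lists were chosen with earlier results of these data known. Named were all members and, from each list, the 3 highest and 2 lowest genes, those without a row first. Other names were chosen after their values were seen. No gene of most similar pattern can be named from 1 library. An item of 1 list is not reported here.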

Additional observations from a re-analysis of the deposited data

How the results depend on the processing

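The 9 network members at 1 FPKM or more were counted at other thresholds within 1.5 times. Counts that moved further were the opposing partners, 2 of 5 at 10 FPKM, the partners of MGA, 4 of 10 at 10 FPKM, the non-coding neighbours, 2 at 0.5 FPKM, and the 3 other network genes, 2 at 0.5 FPKM and 0 at both 5 and 10 FPKM. Other choices of threshold kept the remaining lists within 1.5 times. The activating over opposing ratio of 0.473 was 0.618 without MGA and 0.446 with MYCL and MXD3 added. It turned to 1.14 with the highest member of each side. As a difference of medians it was 1.43 on the log2(FPKM + 1) scale and 1.52 on the log2(FPKM + 0.1) scale, both in favour of MYC. With MYCN left out for want of a row, this sets MYC alone against the middle opposing gene, MXD4, with 9.32 FPKM. A sum grows with the number of genes and a median does not. Rescaling all levels to a common coding sum changes no ratio between genes, but it raised each level. MYC went from 26.9 to 71.7 and MXD1 from 4.08 to 10.9. KAT2A, HCFC1, TXNIP and MYCL, each under 1 FPKM as deposited, became 2.39, 2.37, 2.05 and 1.45. Counts at a fixed threshold thus depend on the scale, and they were not repeated on this one. The FPKM sum was 374744 over coding genes and 3.53e+06 over all listed genes, so most of it lay outside coding genes. No symbol had more than 1 row. No replicate could be left out, and no paired analysis was possible because each kind of library has 1 sample. Without depth for the mRNA library, FPKM values carry no interval.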
